A study of Mus musculus with 2 samples.

Results

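Clearly open regions without any footprint are stretches of adrenal gland chromatin that DNase I cut readily in both libraries, yet in which the authors listed no stretch protected by a bound protein. The members were chosen by measured values. The peaks of the longer deposited list of each pool were merged where they overlapped by 1 bp, regions with a peak of both pools were kept, and the members had a peak signal of 0.8 or more in each pool and overlapped no footprint of either pool. Of 96584 shared regions, 47604 passed the signal threshold in both pools, and 775 of these (1.63%) held no footprint in either. The other 46829 clearly open regions held a footprint in at least 1 pool and are called footprinted here.

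The data are DNase-seq of whole adrenal glands from male B6CASTF1/J mice, which are hybrids between C57BL/6J and CAST/EiJ, at 8 to 10 months of age. The series has 1 group with 2 biological replicates, each a pool of 6 biosamples sequenced as 1 library, and no treated or control group. Both pools carry one donor identifier, the sources used here do not state how many animals were taken, and hybrid DNA was placed on the mm10 assembly, which is the C57BL/6J sequence. Of 12 marker genes of cortex and medulla, 11 had a clearly open region within 1 kb of a start site, as did 11773 of all 21911 protein-coding genes, so this alone does not identify the tissue. Signals were 5.44 and 6.52 at Star in replicates 1 and 2 and 5.61 and 8.59 at Slc18a1, and Chga, a granule protein of chromaffin cells, had none. Because whole glands were used, openness in fewer cells and lower openness per cell cannot be told apart.

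DNase I cuts DNA that is not wrapped tightly around nucleosomes, so an excess of cuts marks promoters, enhancers and other regulatory DNA. Within such a region a bound transcription factor can shield the few bases it contacts, which leaves a short gap in the cuts called a footprint. Factors that bind briefly leave weak footprints or none, and the number of cuts limits which gaps can be called. Many mammalian promoters lie in CpG islands, where the CpG dinucleotide is far more frequent than in the rest of the genome.

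The pairs of sequences that follow show what a region without a footprint looks like beside a footprinted one. The strongest member of each location class is printed with the footprinted region of the same class whose mean log2 signal was nearest, and a member at the promoter of the noncoding gene 1700113A16Rik is printed with its stronger neighbour. Bases are in lower case, and capitals mark bases inside a footprint of either pool, so members hold no capitals. The sequences are the plus strand of GRCm38 (mm10) from RefSeq, 5′ to 3′. The promoter pair is chr11:96977161-96977460, the central 300 bases of a 500 bp region downstream of the start site of Sp2, a zinc finger transcription factor, and chr16:76762961-76763220 near Gm30790. The intron pair is chr17:47511701-47511960 in Ccnd3, which encodes a D-type cyclin, and chr4:76440901-76441100 in Ptprd, a receptor tyrosine phosphatase. The exon pair is chr9:124422621-124422760 in Ppp2r3d, a regulatory subunit of a serine/threonine protein phosphatase, and chr5:149373301-149373580 in BC028471. The intergenic pair is chr4:133563321-133563400 and chr7:30600001-30600240. The neighbours at 1700113A16Rik are chr3:88177141-88177400 and chr3:88177601-88177900.
Sp2 promoter, footprint-free: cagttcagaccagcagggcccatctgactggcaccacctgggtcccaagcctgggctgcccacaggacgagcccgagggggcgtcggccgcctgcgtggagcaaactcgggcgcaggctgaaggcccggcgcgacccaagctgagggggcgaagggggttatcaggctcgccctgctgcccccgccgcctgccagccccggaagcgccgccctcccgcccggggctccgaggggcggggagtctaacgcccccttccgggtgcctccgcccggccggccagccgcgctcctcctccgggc
Gm30790 promoter, footprinted: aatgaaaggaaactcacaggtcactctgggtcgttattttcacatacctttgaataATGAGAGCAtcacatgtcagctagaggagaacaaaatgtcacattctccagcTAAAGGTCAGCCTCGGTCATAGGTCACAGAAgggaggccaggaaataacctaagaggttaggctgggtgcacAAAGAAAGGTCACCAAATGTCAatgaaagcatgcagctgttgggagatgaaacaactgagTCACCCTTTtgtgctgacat
Ccnd3 intron, footprint-free: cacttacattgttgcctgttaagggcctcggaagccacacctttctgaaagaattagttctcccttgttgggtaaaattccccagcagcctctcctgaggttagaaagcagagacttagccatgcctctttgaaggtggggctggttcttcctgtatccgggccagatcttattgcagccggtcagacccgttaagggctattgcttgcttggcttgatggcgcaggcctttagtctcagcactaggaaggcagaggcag
Ptprd intron, footprinted: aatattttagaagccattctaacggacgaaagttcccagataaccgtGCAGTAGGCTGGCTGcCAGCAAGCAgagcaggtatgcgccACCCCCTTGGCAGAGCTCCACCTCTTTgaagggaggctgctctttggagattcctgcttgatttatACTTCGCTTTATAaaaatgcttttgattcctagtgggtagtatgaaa
Ppp2r3d exon, footprint-free: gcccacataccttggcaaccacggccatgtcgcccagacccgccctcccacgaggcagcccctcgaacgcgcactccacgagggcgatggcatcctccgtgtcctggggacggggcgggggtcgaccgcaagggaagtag
BC028471 exon, footprinted: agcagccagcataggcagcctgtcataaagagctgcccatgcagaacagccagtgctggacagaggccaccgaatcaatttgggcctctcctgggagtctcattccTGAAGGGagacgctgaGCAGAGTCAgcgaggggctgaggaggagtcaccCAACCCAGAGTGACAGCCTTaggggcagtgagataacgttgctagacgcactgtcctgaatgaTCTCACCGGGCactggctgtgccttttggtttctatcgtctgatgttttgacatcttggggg
Intergenic, footprint-free: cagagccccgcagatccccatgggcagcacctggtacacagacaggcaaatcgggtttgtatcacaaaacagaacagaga
Intergenic, footprinted: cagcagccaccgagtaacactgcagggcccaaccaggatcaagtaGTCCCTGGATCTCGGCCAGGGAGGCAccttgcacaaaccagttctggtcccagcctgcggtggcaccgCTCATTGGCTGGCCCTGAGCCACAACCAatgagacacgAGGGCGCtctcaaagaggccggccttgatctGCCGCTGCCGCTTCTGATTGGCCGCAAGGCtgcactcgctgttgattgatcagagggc
1700113A16Rik, footprint-free: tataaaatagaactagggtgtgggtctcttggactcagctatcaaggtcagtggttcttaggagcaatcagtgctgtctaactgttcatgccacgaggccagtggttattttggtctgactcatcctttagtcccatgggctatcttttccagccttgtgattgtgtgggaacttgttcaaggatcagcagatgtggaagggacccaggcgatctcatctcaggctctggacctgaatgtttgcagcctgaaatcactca
1700113A16Rik, stronger neighbour: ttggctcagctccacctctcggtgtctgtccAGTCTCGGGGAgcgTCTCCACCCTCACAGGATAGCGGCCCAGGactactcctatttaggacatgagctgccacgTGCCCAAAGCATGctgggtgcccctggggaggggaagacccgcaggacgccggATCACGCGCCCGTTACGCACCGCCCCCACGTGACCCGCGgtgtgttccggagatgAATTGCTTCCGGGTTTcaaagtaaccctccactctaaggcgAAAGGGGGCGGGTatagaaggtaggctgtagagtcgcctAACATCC

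In these printed stretches the Sp2 member held 30 CpG dinucleotides and 4 matches to the GC box GGGCGG, the recognition sequence of Sp factors, with none of those bases in a footprint. Its footprinted counterpart near Gm30790 held 2 CpG dinucleotides, had 71 of its 260 bases in footprints, and both of its matches to the orphan nuclear receptor motif AAAGGTCA lay wholly inside them. Its AP-1 match had 3 of 7 bases in a footprint and its E-box match none. The Sp2 region had signals of 2.03 and 3.05 in replicates 1 and 2, and the Gm30790 region 1.93 and 3.21 with 4 footprints in each pool. At 1700113A16Rik the member had signals of 2.28 and 2.55 and the neighbour, 200 bp away, 10.0 and 11.5 with 8 footprints in each pool. The neighbour's GC boxes and its ETS motif CCGGAAG were wholly inside footprints. The member there held 1 match each to the AP-1 motif TGANTCA and the NR5A1 motif CAAGGTCA, neither touched by a footprint. The intron member in Ccnd3 and the intergenic member held no match to any of the 18 motifs searched, and neither did the footprinted exon region of BC028471.

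Members lay at the low end of openness. Signal is part of the rule that chose them, so these values are a description without a test. Their signal ranged from 0.803 to 4.76 with a median of 1.00 in replicate 1, against a median of 1.5 in footprinted regions, and from 0.807 to 4.49 with a median of 1.25 in replicate 2, against 1.97. The footprint-free share was 4.80% of 4085 regions with a mean signal between 0.841 and 1.00, 1.43% of 5662 regions between 1.41 and 1.68, and 0.286% of 3849 regions between 2.00 and 2.38. At a mean signal of 2.38 or more there were 3 members. A mean log2 signal under 0.5 was found in 83.4% of members and 37.4% of footprinted regions. For this reason the other comparisons set the members against footprinted regions of like signal, weighted to the members' numbers in classes of 0.25 of the mean log2 signal.

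**Figure D1:**
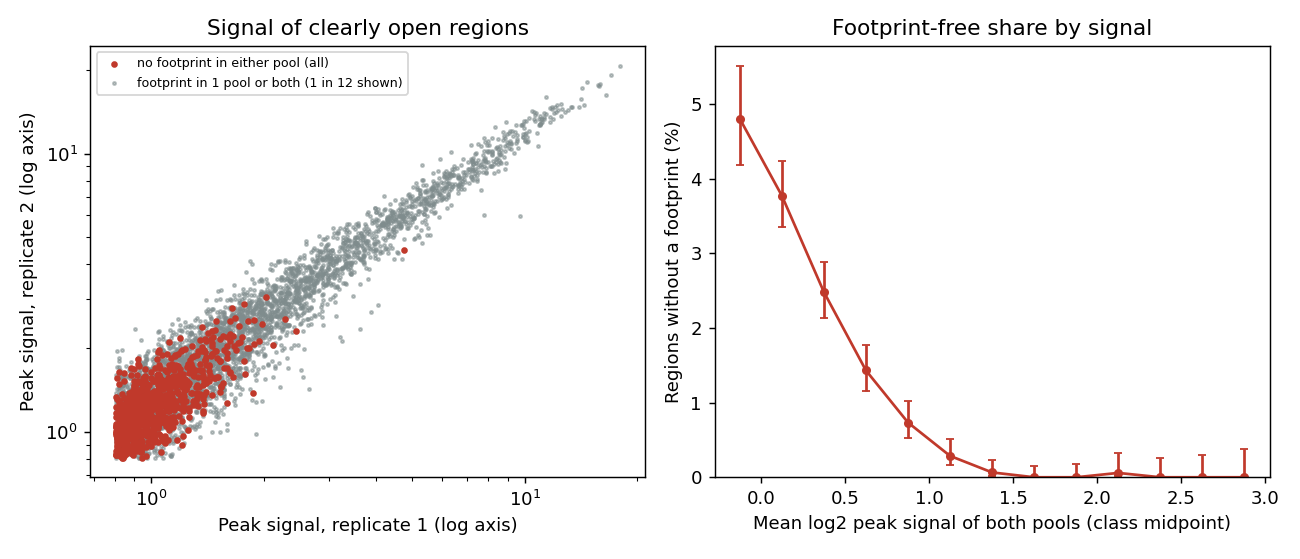
Left, peak signal of each clearly open region in replicate 1 (x axis) and replicate 2 (y axis), both on log axes, for all 775 footprint-free regions (red) and 1 in 12 footprinted regions (grey). Right, percent of clearly open regions without a footprint by mean log2 signal, in classes with at least 1000 regions, with 95% Wilson intervals. The share falls from 4.80% to 0 or near it as signal rises.

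At the threshold itself, the 3 footprint-free regions just inside had a lower signal of 0.803 and lay at the promoters of Vamp4, Sgsh and 1110002L01Rik. The 3 just outside had a lower signal of 0.799 and lay at the promoters of Brox and Fitm1 and in an intron of Bicd2. Without any signal threshold, 4787 shared regions (4.96%) held no footprint.

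The lack of a footprint was partly repeated between the pools. Replicate 1 left 1916 clearly open regions without a footprint (4.02%) and replicate 2 left 1744 (3.66%), which is 3.84% ± 0.255 (SD, n = 2). Of those without one in replicate 1, 40.4% (95% Wilson interval 38.3 to 42.7%) also had none in replicate 2, against 2.12% (1.99 to 2.26%) of the regions with a footprint in replicate 1. Footprinted regions of like signal in replicate 1 lacked a footprint in replicate 2 in 3.81% of cases. In the other direction the shares were 44.4% (42.1 to 46.8%) against 2.49% (2.35 to 2.63%), or 4.14% at like signal in replicate 2. A region with a single footprint in replicate 1 lacked one in replicate 2 in 6.19% of 5090 cases, and 9.71% of 4399 in the other direction. The majority of regions without a footprint in one pool thus held one in the other. Both pools are the same tissue, and the intervals cover counting error only. Regions are not replicates of a condition, so no p-value was computed over them.

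Members were mostly promoter regions. A region overlapping the 1 kb on either side of an annotated transcription start site (TSS) was called a promoter region, and 625 members (80.6%, 95% Wilson interval 77.7 to 83.3%) were, against 20.3% of footprinted regions of like signal and 26% of all shared regions. Exon regions made up 1.81% (14 members) against 4.69%, intron regions 9.55% (74) against 44.9%, and intergenic regions 8.00% (62) against 30.1%. With each pool taken alone, the promoter share of regions without a footprint exceeded that of footprinted ones by 38.0 percentage points in replicate 1 and 44.6 in replicate 2. For regions of like signal and like width the shares were 80.6% and 38.3%. Regions with no footprint in 1 pool only fell between, with 44.0% promoter regions at the members' signal, against 18.2% of regions footprinted in both pools.

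**Figure D2:**
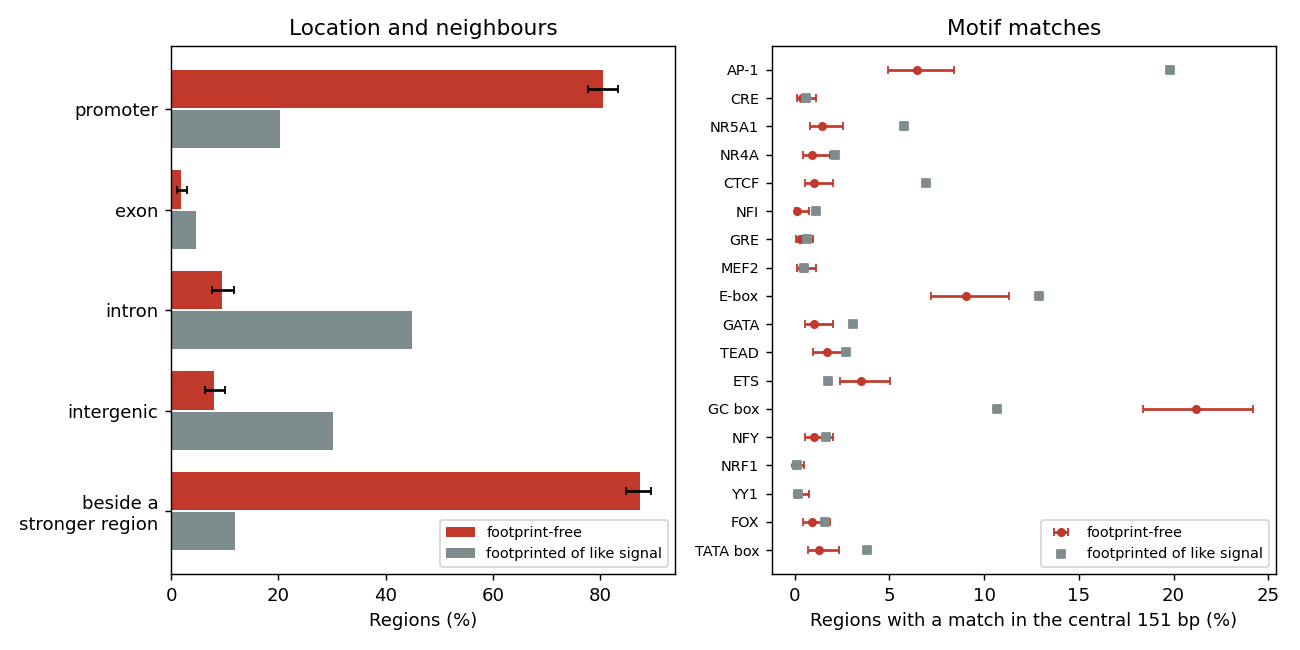
Left, percent of footprint-free regions (red bars, with 95% Wilson intervals) and of footprinted regions of like signal (grey bars) in each location class and beside a stronger shared region within 500 bp. Right, percent with a match to each of 18 motifs within 75 bp of the midpoint, as red points with 95% Wilson intervals and grey squares. Promoter regions and regions beside a stronger one make up over 80% of members, and most motifs are rarer in members.

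Although they were at promoters, members seldom covered the start site. Of the promoter members, 14.7% covered a TSS, against 40.2% of footprinted promoter regions weighted to the promoter members' signal. The midpoint of 467 (74.7%) lay downstream of the nearest TSS, against 53.2% of footprinted promoter regions of like signal. There were 354 (56.6%) at 250 to 750 bp downstream, where 22.1% of footprinted promoter regions of like signal lay. Among promoter regions beside a stronger one, 74.4% of members and 66.3% of footprinted regions lay downstream. Within 250 bp upstream there were 49 (7.84%), against 26.4%. Midpoints 500 to 750 bp upstream were about equally common in both, at 6.08% and 5.62%. By annotation, 23.6% of all members had their midpoint in an exon, 60.3% in an intron and 16.1% outside genes, against 10.9%, 53.9% and 35.2%. The positions and neighbours described here and in the next paragraphs were examined after earlier values had been seen.

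**Figure D3:**
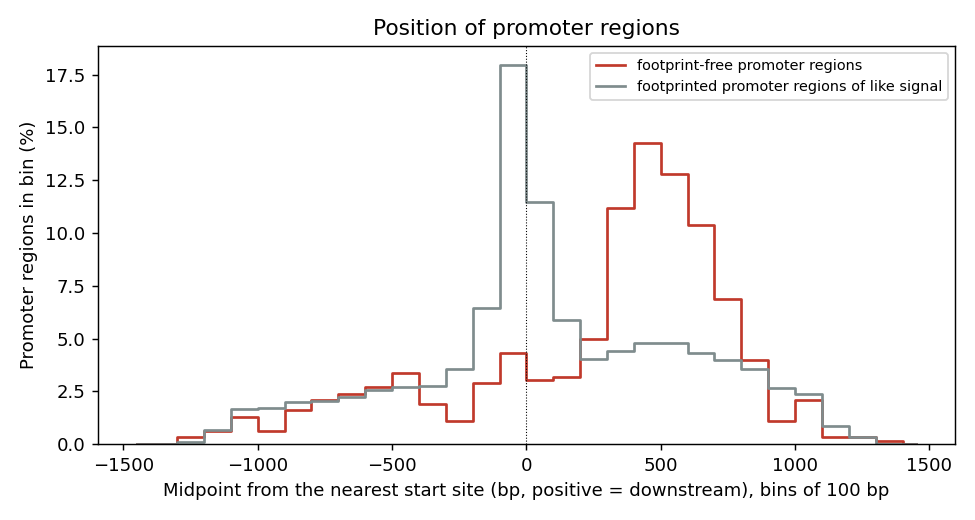
Percent of promoter regions (y axis) by distance of the midpoint from the nearest TSS in bins of 100 bp (x axis, positive values downstream), for footprint-free regions (red) and footprinted regions of like signal (grey). The red line peaks 300 to 700 bp downstream of the start site and the grey line at the start site.

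Most members stood beside a stronger open region. Another shared region lay within 500 bp of 706 members (91.1%), against 23.8% of footprinted regions of like signal, and a region with a higher signal in both pools lay within 500 bp of 677 (87.4%, interval 84.8 to 89.5%), against 12%. The gap to the strongest such neighbour had a median of 240 bp with quartiles of 140 and 320 bp. That neighbour had a median signal of 5.49 in replicate 1 and 6.92 in replicate 2, which was 5.28 ± 0.0839 times the member's own (mean ± SD of the medians of both pools, n = 2). It held a footprint in 673 of 677 cases (99.4%), with a median of 6 footprints in each pool, and covered a TSS for 427. The 99.4% is near the share over all clearly open regions, of which 46829 of 47604 held a footprint. Of 567 promoter members with a stronger neighbour, 75.3% had one that covered a TSS. The footprint numbers and TSS shares of the stronger neighbours of footprinted regions are not given here. Whether these values are particular to members is therefore not known. A footprint lay within 500 bp of the edge of 718 members (92.6%), within 100 bp of 162 (20.9%) and within 25 bp of 11 (1.42%). Footprints are part of the rule, and most members had a footprinted neighbour within 500 bp. The first of these shares thus largely repeats the values above.

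Location and neighbour together separated the clearly open regions widely. Of 3552 promoter regions beside a stronger shared region, 16.0% held no footprint (14.8 to 17.2%), against 0.421% (0.326 to 0.544%) of 13773 promoter regions without such a neighbour. Outside promoters the shares were 6.28% (5.24 to 7.52%) of 1751 and 0.140% (0.103 to 0.191%) of 28528. Among regions with a mean log2 signal under 0.5, the same shares were 28.3% and 1.89% at promoters and 9.14% and 0.258% elsewhere, so the pattern was present within the low signal range. Among promoter regions beside a stronger one, 24.8% of those 250 to 750 bp downstream of the TSS held no footprint (22.6 to 27.2%), against 12.8% (10.3 to 15.9%) of those as far upstream and 7.69% (6.31 to 9.34%) of those within 250 bp.

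The cleavage around members differed from that around footprinted regions, while inside the regions the values were closer. The deposited table gives the false discovery rate (FDR) of the cut rate where it is under 0.05. In members a median of 83.1% of the bases in replicate 1 and 97.1% in replicate 2 had an FDR of 0.001 or lower, against 82.5% and 97.3% in footprinted regions of like signal. The median of −log10 FDR within a region had a median over members of 4.28 in replicate 1 and 5.47 in replicate 2, against 4.60 and 6.00. These values come from the same cuts as the peak signal, and per the readme texts the table was also an input of the footprint list. At promoters, the mean −log10 FDR was 26.8 and 32.7 in replicates 1 and 2 at 600 bp upstream of the midpoint of members, 6.18 and 8.36 at the midpoint, and 8.71 and 10.7 at 600 bp downstream. Footprinted promoter regions of like signal had 3.52 and 5.04, then 6.55 and 9.23, then 2.05 and 3.07. Outside promoters, members had 5.05 and 6.42 at the midpoint and 6.84 and 8.47 at 600 bp to one side, whereas footprinted regions had 7.0 and 9.09, and 0.368 and 0.522. A stronger region lay within 500 bp of 90.7% of promoter members and 33.8% of footprinted promoter regions of like signal. Outside promoters these shares were 73.3% and 6.61%. The flanks were thus not compared at like neighbours.

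**Figure D4:**
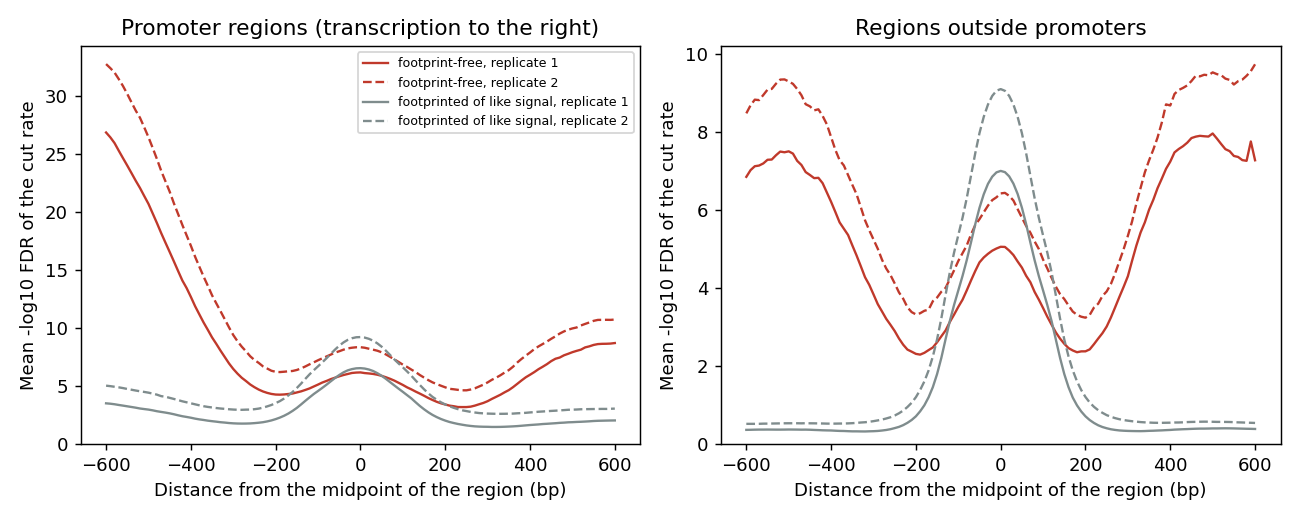
Mean −log10 FDR of the cut rate (y axis, bases not listed counted as 0) by distance from the region's midpoint (x axis), for footprint-free regions (red) and footprinted regions of like signal (grey), in replicate 1 (solid) and replicate 2 (dashed). Left, promoter regions turned so that transcription runs to the right; right, regions outside promoters. Footprint-free regions form a low central rise between higher flanks. Footprinted regions form a single central peak outside promoters, and at promoters a central peak with lower rises towards both ends.

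Members were wider than footprinted regions. Their width ranged from 60 to 1520 bp with a median of 400 bp, against 240 bp in footprinted regions of like signal, and 73.3% against 24.2% were over 300 bp wide. With each pool alone the difference in median was 60 bp in replicate 1 and 100 bp in replicate 2. The footprint-free share was 0.298% of 16775 regions over 200 and up to 250 bp wide, 3.21% of 6300 over 300 and up to 400 bp, and 10.6% of 603 over 700 bp. At promoters it reached 12.1% over 700 bp, and elsewhere 4.80%. The share was also high, at 4.73%, in the 296 regions up to 150 bp wide. Among promoter regions beside a stronger one, the median was 420 bp in members and 380 bp in footprinted regions of like signal, so the difference was smaller there. More than 1 peak of a pool had been merged in 13.5% of members, against 4.61%.

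**Figure D5:**
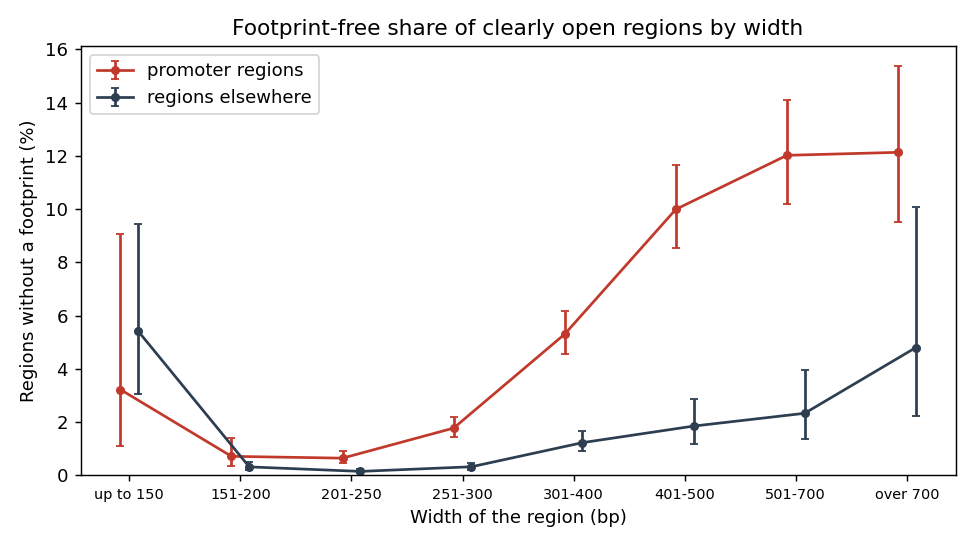
Percent of clearly open regions without a footprint (y axis) by width of the region (x axis), for promoter regions (red) and regions elsewhere (dark blue), with 95% Wilson intervals. The share rises with width from 200 bp on in both, reaching 12.1% and 4.80% over 700 bp, and is also raised in the few regions up to 150 bp wide.

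In sequence the members were rich in G, C and CpG. The median GC content within 75 bp of the midpoint was 59.6%, against 52.3% in footprinted regions of like signal. With each pool alone the difference in median GC content was 3.97 percentage points in replicate 1 and 5.30 in replicate 2, against 7.28 with both. The ratio of observed to expected CpG dinucleotides had a median of 0.582 against 0.257, and exceeded 0.6 in 47.9% (44.4 to 51.4%) of members against 14.0%. Part of this went with location: among promoter regions alone the medians were 61.6% against 59.6% GC and a ratio of 0.641 against 0.550, and outside promoters 53.6% against 51% and 0.323 against 0.223. Among promoter regions beside a stronger one the footprint-free share did not rise with the CpG ratio, being 13.8% up to 0.3, 19.8% over 0.3 and up to 0.6, and 14.7% above. Repeats were not more frequent in members within 75 bp of the midpoint. A mean of 6.60% of these central bases were soft-masked as repeats, against 8.19%. Of the 32-base words in the same window, 0.853% against 1.24% had another copy in the genome.

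Motif matches were searched in either orientation (both strands) in the window reaching 75 bp to each side of the midpoint, where 16 of 18 motifs were less frequent in members than in footprinted regions of like signal. CTCF, the insulator protein with a long recognition sequence, had a match in 8 members (1.03%, interval 0.524 to 2.02%) against 6.92%. AP-1, the dimer of Fos and Jun proteins that binds TGANTCA, had one in 50 (6.45%, 4.93 to 8.41%) against 19.8%. NR5A1, the steroidogenic factor of adrenal cortex, whose motif was searched as CAAGGTCA, had one in 11 (1.42%, 0.794 to 2.52%) against 5.76%. The NFI motif occurred in 1 member (0.129%) against 1.11%. Over all shared regions these shares were 5.91%, 18.9%, 5.16% and 0.892% for CTCF, AP-1, NR5A1 and NFI. Part of the difference went with width: in footprinted regions of like signal and like width the shares were 2.26% for CTCF, 11.6% for AP-1, 3.92% for NR5A1 and 0.668% for NFI, and the NFI value lay inside the members' interval of 0.0228 to 0.727%. The AP-1 difference of −13.4 percentage points was −4.91 with replicate 1 alone and −9.20 with replicate 2 alone. The differences of these motifs also varied with location, as given in the next paragraph.

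Among the remaining motifs, GATA factors' AGATAAG had 1.03% against 3.09%, the TATA box TATAAA 1.29% against 3.81%, and the E-box CAGCTG 9.03% against 12.9%. Outside promoters the E-box had 14.7% against 13.3%, TEAD 3.33% against 2.89% (5 members) and MEF2 2.00% against 0.507% (3 members). Searched over the whole region, where members offer more bases, the E-box had 22.8% against 21.5%, NFY 3.23% against 3.02%, YY1 0.903% against 0.369% and FOX 3.61% against 3.17%, so the direction of these 4 turned. The motifs of CRE (TGACGTCA), NR4A (AAAGGTCA), TEAD (ACATTCC), NFY (CCAATCA), YY1 (AAGATGGCG) and FOX (TGTTTAC) and those of GRE and MEF2 each occurred in at most 1.68% of members. Of these, NR4A had 0.903% (0.438 to 1.85%) against 2.10%, and for the others the footprinted value lay inside the members' interval. NRF1 (GCGCATGCG) had no match in 775 members, against 0.112%, and a count of 0 allows a share of up to 0.387% by a limit of 3 counts and 0.493% by the upper Wilson bound. The GC box GGGCGG and the ETS motif CCGGAAG were more frequent in members, at 21.2% (18.4 to 24.2%) against 10.7% and 3.48% (2.41 to 5.02%) against 1.75%. In footprinted regions of like signal and like width these shares were 17.5% and 2.46%, and the ETS value lay inside the members' interval. This turned with location for the GC box: at promoters it had 23.0% of members against 29.1% of footprinted promoter regions of like signal, and outside promoters 13.3% against 5.80%. AP-1 had 5.12% against 8.00% at promoters and 12% against 22.5% outside, and CTCF 0.80% against 3.88% and 2.00% against 7.53%. NR5A1 had 1.60% against 2.50% at promoters and 0.667% against 6.55% outside, and NFI 0.160% against 0.908% and 0% against 1.16%. Among promoter regions beside a stronger one, AP-1 matches were near equal, with 5.11% against 5.07%. NR5A1 had 1.76% against 1.97% there, and CTCF 0.705% against 1.71%. A match is a run of letters and not evidence of binding.

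The 20 strongest promoter members carried like features, with midpoints downstream of the nearest TSS in 17 and a stronger shared region within 500 bp in 16. Among all promoter members these shares were 74.7% and 90.7%. After Sp2 and 1700113A16Rik came Filip1, which encodes a filamin-binding protein, with signals of 1.88 and 2.53 in replicates 1 and 2 and no stronger neighbour. Xrcc3, a protein of homologous recombination repair, had a member with 1.98 and 2.44, whose neighbour 420 bp away had 11.8 and 12.6. Nudt19, a coenzyme A hydrolase, had 1.78 and 2.89, with a neighbour of only 2.21 and 3.34 that held 4 and 8 footprints. Ino80, the ATPase of a nucleosome remodelling complex, had 1.72 and 2.40 and no stronger neighbour within 500 bp. Gdi2, a regulator of Rab GTPases, had 1.95 and 2.13 beside 5.08 and 6.46. Rhot1, a GTPase of the mitochondrial outer membrane, had 1.83 and 2.00 beside 4.87 and 6.60 at a gap of 60 bp. Others lay nearest to the start sites of 1700012D14Rik, Lix1l, Zfp444, Kctd9, Ifitm2, Aamp, Glrx5, Cdv3, 1810013L24Rik, Zfp687 and Fbxo24, with signals from 1.55 to 1.89 in replicate 1 and 2.01 to 2.57 in replicate 2.

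Away from promoters the strongest members were more mixed. The 3 strongest intergenic members were narrow: 80 bp on chromosome 4 with signals of 4.76 and 4.49, 60 bp at chr2:93126741-93126800 with 2.44 and 2.31, and 148 bp at chr11:96311197-96311344 near Hoxb5os with 1.60 and 2.20. The first of these, the strongest member of all, had the nearest footprint 1 bp outside its edge in replicate 1 and 33 bp outside in replicate 2, and the second 3 bp and 1 bp. The intron members in Ccnd3, with 2.12 and 2.05, and in Msi2, which encodes an RNA-binding protein, with 1.73 and 2.11, differed in their surroundings. The Ccnd3 member stood 260 bp from a region with 10.2 and 11.0 and 8 and 9 footprints, and the nearest footprint to the Msi2 member was 1841 and 1840 bp away in replicates 1 and 2. The third intron member, in Gm14486, had 1.60 and 2.03. The strongest exon members lay in Ppp2r3d with 1.63 and 1.63, Pnpla1os with 1.23 and 1.40, and Mepce, which encodes an RNA capping enzyme, with 1.17 and 1.26. In all, 98 members had no stronger neighbour within 500 bp, with a median width of 260 bp, and 58 of them were at promoters.

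By gene, 665 of 11773 protein-coding genes with a clearly open region within 1 kb of a TSS had a member there (5.65%), and 30 had 2 or more. In 5 genes every such region lacked a footprint, and these were Acan, Cpeb4, E030018B13Rik, Rcsd1 and Usp49, named after their values were seen. Of the lists examined, immediate early genes had a member at 4 of 10 genes with an open promoter, steroidogenesis at 2 of 15, chromaffin cells at 1 of 14, the circadian clock at 1 of 12 and housekeeping genes at 1 of 12. Cholesterol synthesis had 0 of 15, endothelium 0 of 4 and macrophages 0 of 2. These counts are small and were not tested, and genes differ in how many open regions they have. In all 9 genes concerned a stronger, footprinted region was open at the same gene. A footprinted region was also open at all but 5 of the 665 genes with a member. This is near what any such gene shows. Of all 11773 genes with a clearly open region there, 5 (0.0425%) had no footprinted one.

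Among the immediate early genes, which encode transcription factors and regulators induced within minutes of a stimulus, Jun had the widest member of all, 1520 bp with signals of 1.11 and 1.41 and its midpoint 1201 bp downstream of the TSS. The promoter region of Jun at the TSS had 15.4 and 16.9 and 5 footprints in each pool. At Atf3, a repressor of the ATF family, the member had 1.33 and 1.96 against 11.5 and 13.9 in a region whose midpoint lay 211 bp upstream. At Ier2 the member had 1.32 and 1.25 against 6.11 and 7.85, and at Fosl2, a Fos family protein, 1.35 and 2.13 against 8.77 and 12. The region set beside each member was the strongest clearly open one at that gene, and signal is part of the rule. That the member was the weaker in both pools is therefore no separate result. Members at Jun, Ier2 and Atf3 lay downstream of the TSS and that of Fosl2 730 bp upstream.

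At genes of the gland's own functions, the clock and housekeeping the members were weak, all under 1.5 in both pools. At Cyp21a1, the steroid 21-hydroxylase of the cortex, whose near-identical pseudogene makes the placement of reads uncertain, the member 460 bp upstream had 0.914 and 1.03, against 5.27 and 4.72 with 7 and 4 footprints in the region at the TSS. At Scarb1, the receptor that takes up cholesterol from high-density lipoprotein, the member 607 bp upstream had 0.981 and 1.3, against 4.22 and 5.01. At Slc18a1, the vesicular monoamine transporter of chromaffin cells, the member had its midpoint 29 bp upstream of a TSS and signals of 0.803 and 0.823, against 5.61 and 8.59 in a region whose midpoint lay 551 bp downstream. At the clock gene Arntl the member 504 bp downstream had 0.973 and 1.44, against 10.6 and 11.6. At Gapdh, a glycolytic enzyme, the member 614 bp upstream had 1.13 and 1.37, against 6.20 and 7.63. A region at Gapdh weaker than the member, with 0.892 and 0.903, held 4 and 3 footprints. Another with 1.34 and 1.32 held 1 in each pool. At each of these genes the region set beside the member was the strongest clearly open one.

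The members were spread over the chromosomes, from 0.897% of 2117 clearly open regions on chromosome 15 (0.575 to 1.40%) to 2.10% of 1762 on chromosome 14 (1.53 to 2.88%) among the autosomes. On the X chromosome 5 of 729 regions (0.686%, 0.293 to 1.60%) had no footprint.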

How the data were processed

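DNase-seq libraries of 2 adrenal gland pools were compared region by region. Per the deposited readme texts, the authors derived 2 peak lists, footprints and a table of the FDR of the cut rate, an adjusted p-value, from each pool's alignments to mm10. The peak signal is the authors' own value, and the sources used here name neither its scaling nor the aligner or callers. Each deposited footprint carries another value, the constant 0.01, so footprints could not be ranked. No counts were used here, so the depth behind the signal is unknown. The members and lists were chosen with earlier results of these data known.

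Regions on 21 chromosomes were annotated with the basic set of GENCODE M21 (77161 TSS positions). Footprinted regions were weighted to the members' numbers in signal classes. Sequence features were read from GRCm38 within 75 bp of the midpoint. Wilson intervals (95%) cover counting error only. Scripts used Python 3.11.15, numpy 2.4.6, pandas 2.3.3 and scipy 1.17.1 and were tested on simulated regions. Named regions were the 10 strongest members by mean rank, the 3 strongest per location class, the 3 on either side of the threshold, genes of the 20 strongest promoter members and listed genes with a member. One region that this rule names is not reported here.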

Additional observations from a re-analysis of the deposited data

How the results depend on the processing

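Values here are footprint-free minus footprinted of like signal unless named otherwise, and differences in percentage points or bp. The reported values were 1.63% without a footprint, 60.3 points of promoter share, 7.28 of GC content, −1.59 of soft-masked bases and 160 bp of width. At a threshold of 0.6 the footprint-free share was 2.32% and the soft-masked difference −1.71. At 1.2 they were 0.534% and −0.854, the GC difference was 9.93, the width difference 100 bp and the share repeated in the other pool 35.1%, against 42.4% (the mean of both directions). The shorter peak lists gave 8.61 for GC, −1.53 for soft-masked bases and 109 bp. The soft-masked difference was −1.68 with footprints extended by 25 bp, −0.589 without regions over 50% soft-masked and −1.54 with signal classes of 0.5. With classes of signal and width, the promoter difference was 42.4, GC 5.30, soft-masked −1.16 and width 0 bp, the last by construction. Without regard to signal they were 45.0, 5.30 and −0.108 for promoters, GC and soft-masked bases. A promoter of 500 bp on either side gave 49.6. With 1 pool alone the ranges were 4.07 to 4.82% without a footprint, 38.0 to 44.6 for promoters, 3.97 to 5.30 for GC, −1.36 to −1.29 for soft-masked bases and 60 to 100 bp. In 2 alternatives chosen after seeing the data, promoter regions only gave 1.99, −0.658 and 120 bp for GC, soft-masked bases and width, and regions beside a stronger one only gave 27.3 for promoters, then 3.97, −0.837 and 90 bp.

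The number of motifs rarer in members was 16 of 18, with 11 to 17 across alternatives. The lowest numbers were 11 at the signal threshold of 1.2 and 12 with motifs searched over the whole region. Of 78 alternative values of 6 motifs (AP-1, CTCF, NR5A1, NFI, ETS and GC box), 75 kept their direction. With classes of signal and width the differences were −5.18 for AP-1, −1.22 for CTCF and 3.70 for the GC box, against −13.4, −5.89 and 10.5. The ETS difference turned to −1.17 and the GC box to −0.404 without regard to signal, and the GC box to −6.06 among promoter regions only. The cause of these changes was not tested. Unknown depth limits which gaps in the cuts could be called as footprints. No paired analysis was possible because there is only 1 group.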

Other observations

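The members can be set beside the 2110 regions with no footprint in 1 pool only, weighted to the members' signal. A stronger shared region lay within 500 bp of 87.4% of members, 48.1% of regions free of footprints in 1 pool and 8.81% of regions footprinted in both pools. The median width was 400 bp in members, 280 bp in regions free in 1 pool and 240 bp in regions footprinted in both, and the median CpG ratio 0.582, 0.347 and 0.252 in the same order. The AP-1 motif occurred in 6.45% of members and 18.1% of regions free in 1 pool, and the CTCF motif in 1.03% of members, 0.710% of regions free in 1 pool and 7.48% of regions footprinted in both. These comparisons were chosen after earlier values were seen and were not tested.

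The bases of footprints themselves nearly all lay where the cut rate passed an FDR of 0.05, at 99.2% in replicate 1 and 99.5% in replicate 2, and 81.2% and 86.4% lay at an FDR of 0.001 or lower. The FDR was an input of the footprint list, so these shares are not independent of it. Members and footprinted regions of like signal also had a median of 100% of their bases under 0.05 in each replicate. There were 15 stronger regions with more than 1 member beside them.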
